A study of Mus musculus with 6 samples.

Results

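Foxp3 regulatory T cells (Tregs) were examined in 6 droplet single-cell RNA libraries of the 4T1 model, a mouse mammary carcinoma used to study triple-negative breast cancer. The members were 373 of 42902 deposited barcodes, 42259 of which had at least 300 genes and at most 20% mitochondrial counts. A member had at least 2 unique molecular identifiers (UMIs, each counting 1 captured RNA molecule) of the CD3 chain genes Cd3d, Cd3e and Cd3g together, at least 1 UMI of Foxp3, no UMI of Cd8a or Cd8b1, and fewer than 12 UMIs per 10000 of Epcam, Krt7, Krt8 and Krt18. The members were therefore selected on measured counts of these 10 genes, whose levels are given as descriptions and without a test. There were 56, 28 and 57 members in libraries 1 to 3 labelled shPgk1 and 95, 89 and 48 in shNC libraries 1 to 3.

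Per the labels, shPgk1 libraries come from 4T1 cells carrying a lentiviral short hairpin RNA against PGK1, a glycolytic kinase, and shNC libraries from 4T1 cells carrying a hairpin with no target. Cells of both groups had 48 h of transduction and 7 days of puromycin at 2 ug/mL. The labels name the carcinoma cells only and describe the hairpin for no other cell, and they state no host strain, age or time in an animal. T cells are not 4T1 cells, so the groups compare Tregs found beside differently labelled carcinoma cells, and not Tregs in which Pgk1 was targeted. Libraries held 78778073 to 128933960 UMIs. Over all kept barcodes Pgk1 stood at 332 ± 14.3 CPM (the share of the gene in all UMIs of a sum, scaled to a common total) in shPgk1 and at 334 ± 18.8 CPM in shNC (SD, n = 3 each), and in barcodes gated on tumour genes at 270 ± 40.6 CPM in shPgk1 and at 230 ± 28.2 CPM in shNC. Pgk1 was thus not lower in shPgk1, and libraries are named by their label.

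Tregs are CD4 T cells that restrain other immune cells. Foxp3 is their lineage transcription factor; it works with Ikaros family factors and with interleukin-2 signals, which reach the cell through CD25, the product of Il2ra. In tumours, Tregs often carry high levels of CTLA-4 and of costimulatory receptors of the tumour necrosis factor receptor family, such as OX40 (Tnfrsf4), GITR (Tnfrsf18) and 4-1BB (Tnfrsf9).

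The selection sat on a graded Foxp3 signal. Of the members, 97 had a single Foxp3 UMI and the highest had 28. In the summed counts of each library, Foxp3 stood at 381, 603 and 410 CPM in shPgk1 libraries 1 to 3 and at 447, 424 and 256 CPM in shNC libraries 1 to 3. shNC library 3 was the lowest. A Foxp3 UMI was present in 15.5% of barcodes with CD3 at the same threshold, against 1.82% of barcodes gated on macrophage genes (median 13334 UMIs) and 1.41% of those gated on tumour genes (median 8469 UMIs). The median member had 6268 UMIs and 2215 genes. Thinned to 2000 UMIs, 65.7% of 364 members kept a Foxp3 UMI, so a T cell barcode with none is not shown to lack the RNA. Foxp3 lies on the plus strand of chromosome X, from 7573644 to 7595245 in GENCODE M21 coordinates (GRCm38). The annotated transcript Flicr overlaps it from 7573600 to 7581027, at 7.22 CPM on average in Treg sums and 0 in Foxp3-negative CD4 sums, and reads of both cannot be told apart there.

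The other marker genes of the label were present. Il2ra, Ikzf2, Tnfrsf4 and Tnfrsf18 were detected in 79.1, 92.5, 84.7 and 84.5% of members. Barcodes just inside and just outside the thresholds differed in these genes. The 97 members with 1 Foxp3 UMI had Ikzf2, which encodes Helios, at 806 CPM and the macrophage gene Lyz2 at 2552 CPM, while the 276 with more had Ikzf2 at 1332 CPM and Lyz2 at 361 CPM. The 112 barcodes that had Foxp3 but a single CD3 UMI, just outside, had Ikzf2 at 96.9 CPM and Lyz2 at 2751 CPM. The 42 members with exactly 2 CD3 UMIs had Ikzf2 at 521 CPM and Lyz2 at 4230 CPM. Another 73 barcodes with CD3 carried both Foxp3 and a Cd8 UMI and were not members.

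Some members carried RNA of other cell types. Marker genes of macrophages, neutrophils, B cells or fibroblasts reached 30 per 10000 UMIs in 39 members, and the counts of genes called below, and the Treg shares of kept and of CD3 barcodes, were repeated without such barcodes. The summed level of 7 macrophage or monocyte markers ran from 1444 to 2159 CPM in shPgk1 Treg sums and from 1605 to 7493 CPM in shNC, where library 3 held the top value. The 4 neutrophil markers ran from 28.6 to 11438 CPM in shPgk1, with the top in library 2, and from 244 to 459 CPM in shNC. The 4 fibroblast markers ran from 254 to 2291 CPM in shPgk1, with the top in library 3, and from 395 to 630 CPM in shNC. The 6 epithelial markers, 4 of them limited by the selection, ran from 415 to 577 CPM in shPgk1 and from 277 to 330 CPM in shNC, and the 4 mast cell markers from 8.95 to 35.4 and from 46.1 to 126 CPM, with Fcer1a at 0. These last 2 lists did not overlap between the groups, and over all kept barcodes they did not overlap either, in the same directions. For mast cell markers the highest shPgk1 value there was 185.7 CPM and the lowest shNC value 185.9 CPM. Over all kept barcodes neutrophil markers ran from 131 to 612 CPM in shPgk1 and from 1317 to 1961 CPM in shNC. Fibroblast markers ran there from 917 to 1487 and from 1980 to 2856 CPM. Macrophage or monocyte markers ran from 3242 to 5256 and from 5287 to 5591 CPM. The 4 B cell markers stayed between 0.0 and 10.6 CPM in all 6 Treg sums, and NK and gamma-delta T cell markers reached at most 9.90 and 12.5 CPM, with Klra8 and Trdv4 at 0. Cell names are serial numbers per library; 11389 of 26570 recur between libraries, and 0 kept barcodes had the same counts as another.

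The first comparison asked whether Tregs took a different share of the suspension. Tregs made up 0.835, 0.377 and 0.771% of kept barcodes in shPgk1 libraries 1 to 3 and 1.23, 1.43 and 0.702% in shNC libraries 1 to 3. The groups overlapped through shNC library 3. The means were 0.661 ± 0.248% and 1.12 ± 0.379% (SD, n = 3 each), a difference of −0.46 percentage points (two-sided exact permutation test, p = 0.3, with 0.1 the smallest p that 3 against 3 allow). The edgeR quasi-likelihood test of barcode numbers gave a log2 fold of −0.77 ± 0.39 (SE; Benjamini-Hochberg adjusted p = 0.152 over 7 populations). In a suspension, a share falls when other cells rise, and these 2 cannot be told apart here. Counted among CD3 barcodes, Tregs made up 11.8 ± 3.42% in shPgk1 and 14.5 ± 6.34% in shNC (exact permutation test, p = 0.7). The difference was −2.70 points; it was −4.79 points without barcodes carrying other-lineage markers and turned to 0.46 points without shNC library 2.

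**Figure D1:**
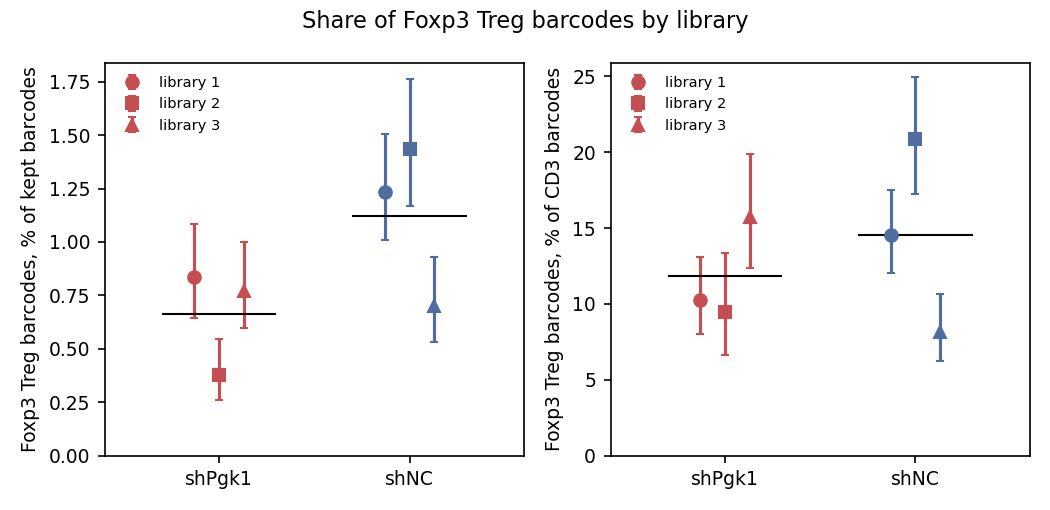
Foxp3 Treg barcodes as a percentage of kept barcodes (left) and of CD3 barcodes (right) in each library, shPgk1 left of shNC. Points are libraries with 95% Wilson intervals, which cover counting error only, and black lines are group means; shPgk1 libraries lie between 0.377 and 0.835% of kept barcodes and shNC libraries between 0.702 and 1.43%.

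Foxp3-negative CD4 T barcodes had at least 2 CD3 UMIs and a Cd4 UMI but no Foxp3 UMI, and Tregs were not required to have a Cd4 UMI. Of both populations together, Tregs made up 57.1, 57.1 and 56.4% in shPgk1 libraries 1 to 3 and 59.4, 60.1 and 57.8% in shNC libraries 1 to 3. The groups did not overlap. The means were 56.9 ± 0.408% and 59.1 ± 1.17% (exact permutation test, p = 0.1, the smallest possible). The Wilson 95% intervals of the libraries, such as 47.3 to 66.5% in shPgk1 library 1, were wider than the difference of 2.21 points. CD8 T barcodes took 48.0 ± 10.8% of CD3 barcodes in shPgk1 and 35.0 ± 9.24% in shNC (exact permutation test, p = 0.3).

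The next comparisons asked which genes separated Tregs from the other T cells of the same libraries. UMI counts were summed per library and population, and Tregs were compared with 266 Foxp3-negative CD4 T barcodes, which had a Cd4 UMI, and with 1154 Foxp3-negative CD8 T barcodes, which had a Cd8a or Cd8b1 UMI. The model held the library as a term (edgeR quasi-likelihood test, Benjamini-Hochberg adjustment over all genes tested, threshold 0.05). Median depths were 6268 UMIs in Tregs, 5937 in CD4 T and 15079.5 in CD8 T barcodes. Against CD4 T barcodes 193 of 5643 genes were higher in Tregs (3.42%) and 271 were lower (4.8%). Against CD8 T barcodes 1463 of 9269 genes were higher (15.8%) and 1419 lower (15.3%). Without barcodes that carried other-lineage markers the counts were 162 higher and 293 lower against CD4 T and 1710 higher and 1613 lower against CD8 T barcodes. The 154 genes higher in both were 80.2% of those higher than in CD4 T and 10.5% of those higher than in CD8 T barcodes, Foxp3 left out. Both comparisons use the same Treg sums and are not independent of each other.

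Genes of Treg identity were higher in Tregs against both populations. Foxp3 aside, 11 of 14 tested list members were higher than in CD4 T barcodes and 0 were lower, with a median log2 fold of 1.51, beside 0.00 over all genes. Against CD8 T barcodes 13 of 14 were higher and 0 lower, with a median of 2.36, beside −0.05 over all genes. The list was drawn up with Foxp3 Tregs in mind and its members were known to mark these barcodes, so its direction is a check of the label.

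Ikzf2, which encodes the Ikaros family factor Helios, had the largest fold of the list against CD4 T barcodes. Its lowest, median and highest library values were 549, 1329 and 1767 CPM in Tregs, 84.8, 203 and 231 CPM in CD4 T and 104, 136 and 219 CPM in CD8 T barcodes. Every Treg sum lay above every sum of the other populations. All fold sizes are on the log2 scale with their SE, and the lowest Treg value was that of shNC library 3. The log2 fold was 2.59 ± 0.27 (SE) against CD4 T (edgeR adjusted p = 0.000443) and 2.84 ± 0.14 against CD8 T barcodes (edgeR adjusted p = 1.69e-10). Il2ra, which encodes the interleukin-2 receptor chain CD25, stood at 432, 590 and 788 CPM in Tregs, at 64.6, 108 and 136 CPM in CD4 T and at 48.9, 83.8 and 95.5 CPM in CD8 T barcodes. It did not overlap either population (log2 fold 2.38 ± 0.15 and 2.70 ± 0.11). Ikzf4, which encodes Eos, had folds of 1.89 ± 0.20 and 2.75 ± 0.16. Ctla4, the inhibitory receptor for CD80 and CD86, stood at 722, 794 and 926 CPM in Tregs, at 97.8, 229 and 378 CPM in CD4 T and at 104, 131 and 157 CPM in CD8 T barcodes, again without overlap. Lrrc32 encodes GARP, which holds latent TGF-beta at the cell surface, and was higher by 2.18 ± 0.37 against CD4 T (edgeR adjusted p = 0.00104) and 2.30 ± 0.25 against CD8 T barcodes (edgeR adjusted p = 2.26e-07). Tigit, an inhibitory receptor, was higher against CD8 T (2.00 ± 0.26) and had a fold of 0.76 ± 0.30 against CD4 T barcodes (edgeR adjusted p = 0.138). The neuropilin gene Nrp1 had a fold of −0.62 ± 0.25 against CD4 T (edgeR adjusted p = 0.142) and was higher by 1.07 ± 0.21 against CD8 T barcodes.

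The tumour necrosis factor receptors followed. Tnfrsf4 stood at 459, 611 and 772 CPM in Tregs, at 94.5, 208 and 317 CPM in CD4 T and at 25.7, 50.4 and 96.1 CPM in CD8 T barcodes. The Treg range lay above both others, with log2 folds of 1.43 ± 0.18 and 3.32 ± 0.25. Tnfrsf18, its neighbour on chromosome 4, stood at 412, 480 and 614 CPM in Tregs, at 78.2, 204 and 341 CPM in CD4 T and at 74.9, 80.5 and 111 CPM in CD8 T barcodes. Tregs lay above both, by 1.13 ± 0.21 and 2.31 ± 0.11. Of 17 tested genes of these receptors and of NF-kB, the transcription factor they activate, 5 were higher than in CD4 T barcodes and 0 lower. They were Tnfrsf4, Tnfrsf9, Tnfrsf18, Tnfrsf1b and the adaptor gene Traf1, and the list's median fold was 0.17. In the CD8 T comparison 16 of 18 were higher and 0 lower, with a median of 1.07. These included the NF-kB subunit genes Nfkb1, Rel, Rela and Relb.

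**Figure D2:**
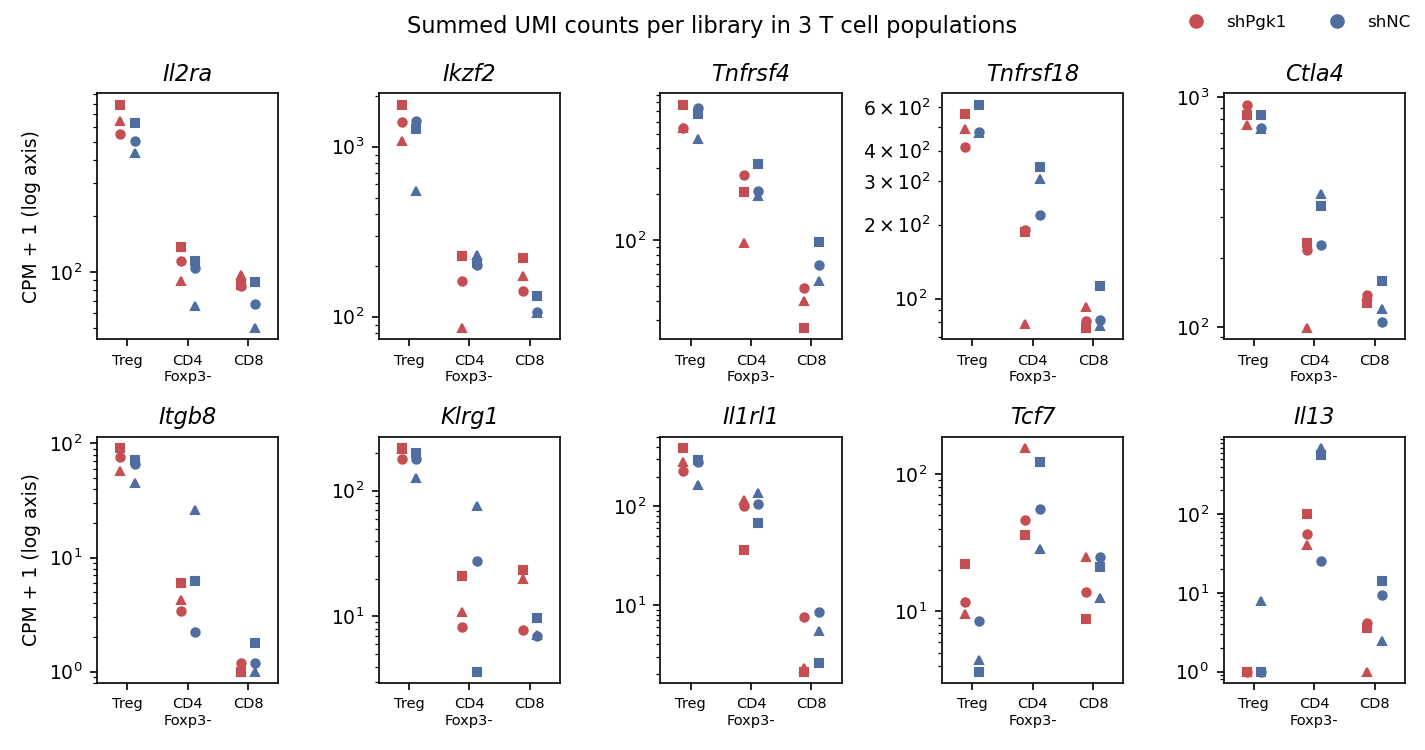
Library values of 10 genes in Tregs, Foxp3-negative CD4 T and CD8 T barcodes, as CPM of the summed counts plus 1 on a log axis; circles, squares and triangles are libraries 1, 2 and 3, red shPgk1 and blue shNC. Tregs lie above both other populations for Il2ra, Ikzf2, Tnfrsf4, Tnfrsf18, Ctla4, Itgb8, Klrg1 and Il1rl1 and below CD4 T barcodes for Tcf7 and Il13.

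Promoter windows were read for marker genes that were higher in both comparisons and for Foxp3, to show which of 4 short motifs they hold. They numbered 13 for 10 genes, and 9 of them held none of the motifs: the windows read for Ctla4, Il2ra, Tnfrsf4, Izumo1r, Ccr2 and Itgb8 and another window each of Il1rl1, Tnfrsf9 and Foxp3. The other 4 are printed. The windows are RefSeq's 250 bases before to 50 after a gene start (GRCm38.p6), all 4 printed ones on the plus strand, and capitals mark the motif matches. The Il1rl1 window at chr1:40439379-40439678 holds the forkhead motif TGTTTAC on the minus strand, read here as GTAAACA. The Tnfrsf9 window at chr4:150927749-150928048 holds the STAT5 motif TTCNNNGAA, the NF-kB motif (GGGA, any base, TT, any base, CC) and the AP-1 motif TGAGTCA. The Tnfrsf18 window at chr4:156026072-156026371 and the Foxp3 window at chrX:7580233-7580532 each hold the STAT5 motif.
Il1rl1: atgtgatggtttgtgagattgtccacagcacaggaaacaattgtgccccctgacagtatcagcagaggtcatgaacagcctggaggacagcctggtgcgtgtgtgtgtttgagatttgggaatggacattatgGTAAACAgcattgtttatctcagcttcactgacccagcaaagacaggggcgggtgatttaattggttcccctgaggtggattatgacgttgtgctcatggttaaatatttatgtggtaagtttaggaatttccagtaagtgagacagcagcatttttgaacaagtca
Tnfrsf9: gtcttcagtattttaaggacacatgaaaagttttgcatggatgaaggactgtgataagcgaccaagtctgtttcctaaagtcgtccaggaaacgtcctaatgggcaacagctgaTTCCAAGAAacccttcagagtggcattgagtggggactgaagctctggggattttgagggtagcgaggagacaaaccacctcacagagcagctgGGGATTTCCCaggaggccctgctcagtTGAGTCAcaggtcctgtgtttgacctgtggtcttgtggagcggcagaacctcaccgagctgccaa
Tnfrsf18: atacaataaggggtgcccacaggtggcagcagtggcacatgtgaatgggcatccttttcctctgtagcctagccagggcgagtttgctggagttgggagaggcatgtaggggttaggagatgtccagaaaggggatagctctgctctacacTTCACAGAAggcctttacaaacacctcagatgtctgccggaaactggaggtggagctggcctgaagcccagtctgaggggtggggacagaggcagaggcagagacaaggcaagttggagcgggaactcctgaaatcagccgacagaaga
Foxp3: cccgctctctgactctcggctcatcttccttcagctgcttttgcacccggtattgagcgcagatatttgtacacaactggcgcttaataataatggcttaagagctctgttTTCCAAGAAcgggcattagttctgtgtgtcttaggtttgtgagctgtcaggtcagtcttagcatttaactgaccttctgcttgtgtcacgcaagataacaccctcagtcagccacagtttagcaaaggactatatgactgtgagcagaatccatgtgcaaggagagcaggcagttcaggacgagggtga

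Both strands were searched. Windows existed for 110 of 154 genes higher in Tregs in both comparisons, Foxp3 left out, and numbered 148. The forkhead motif was in 6.08% of them, beside 2.92% of 5812 windows of the genes tested in both comparisons and 3.65% of all 32851 windows. The AP-1 motif was in 4.73, 3.58 and 5.20% of these sets, the STAT5 motif in 6.08, 6.59 and 8.30%, and the NF-kB motif in 0.676, 1.43 and 1.20%. The forkhead share rests on 9 windows. A match describes letters in a window and is not evidence of binding.

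Genes of activated tumour Tregs were mostly higher. Of 16 tested list members, 9 were higher than in CD4 T barcodes and 0 lower, with a median log2 fold of 0.73. In the CD8 T comparison 15 of 18 were higher and 3 lower, with a median of 1.54, and the 3 lower genes were the exhaustion-associated receptors Havcr2, Lag3 and Pdcd1. Klrg1, a lectin-like receptor of differentiated lymphocytes, stood at 125, 187 and 217 CPM in Tregs, at 2.64, 14.9 and 74.6 CPM in CD4 T and at 6.05, 7.77 and 22.4 CPM in CD8 T barcodes. Tregs did not overlap either population. The log2 fold against CD4 T was 2.90 ± 0.58 (edgeR adjusted p = 0.0304), and its adjusted p reached 0.066, 0.0834, 0.099 and 0.1 without shNC library 1 or shPgk1 library 1, 2 or 3. Il1rl1 encodes ST2, the receptor for the alarmin interleukin-33. It stood at 164, 280 and 386 CPM in Tregs, at 35.1, 102 and 137 CPM in CD4 T and at 1.12, 3.02 and 7.56 CPM in CD8 T barcodes. The populations were ordered without overlap, and the folds for Tregs were 1.35 ± 0.28 and 5.70 ± 0.45. Tnfrsf9 was higher by 1.64 ± 0.18 and 1.33 ± 0.11, and the costimulatory receptor gene Icos by 1.01 ± 0.19 and 2.45 ± 0.12. The transcription factor gene Maf was higher by 0.76 ± 0.20 against CD4 T (edgeR adjusted p = 0.0239) and 4.12 ± 0.34 against CD8 T barcodes, while Prdm1, which encodes Blimp-1, was higher by 0.73 ± 0.22 (edgeR adjusted p = 0.0462) and 0.90 ± 0.15. The calls of Batf, Maf and Prdm1 against CD4 T barcodes held in 9, 7 and 3 of 12 alternative settings, and were lost without shNC library 1 and shPgk1 library 3 among others, at adjusted p of up to 0.104, 0.113 and 0.295. Ccr8, a chemokine receptor of tumour Tregs, had 10.2, 18.2 and 28.3 CPM in Tregs, was too low for the CD4 T test and was higher by 2.64 ± 0.37 against CD8 T barcodes.

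Few mediators of suppression passed the test against CD4 T barcodes. Of 11 tested, Itgb8 and Ctla4 were higher than in CD4 T barcodes and 0 were lower, with a median fold of 0.18. Itgb8 encodes the beta-8 integrin chain that activates latent TGF-beta. It stood at 44.4, 67.6 and 89.9 CPM in Tregs, at 1.22, 4.14 and 24.9 CPM in CD4 T and at 0.0, 0.0945 and 0.798 CPM in CD8 T barcodes. No ranges overlapped, and the log2 folds were 3.17 ± 0.48 (edgeR adjusted p = 0.00105) and 7.93 ± 0.36 (edgeR adjusted p = 2.89e-13). Il10, an inhibitory cytokine gene, stood at 37.0, 45.7 and 69.9 CPM in Tregs and at 26.1, 32.3 and 80.3 CPM in CD4 T barcodes. These ranges overlapped, with folds of 0.18 ± 0.25 (edgeR adjusted p = 0.749) against CD4 T and 0.39 ± 0.30 (edgeR adjusted p = 0.362) against CD8 T barcodes. Tgfb1 had folds of −0.11 ± 0.17 and 0.18 ± 0.12, and passed neither test. In the CD8 T comparison 4 of 13 were higher (Ebi3, Itgb8, Areg and Ctla4) and 4 lower (Gzmb, Prf1, Lgals1 and Lag3). The cytotoxic granule genes Gzmb and Prf1 had log2 folds of −2.21 ± 0.22 and −4.33 ± 0.49 there. In the interleukin-2 pathway, the receptor target genes Socs2 and Pim1 and Il2ra were higher than in CD4 T barcodes, and Socs3 and Bcl2 lower, of 13 tested (median 0.32). Against CD8 T barcodes 8 of the 13 were higher, among them the signal transducer genes Jak1, Jak3, Stat5a and Stat5b, and Bcl2 was lower (median 0.48). The call of Socs3 against CD4 T barcodes was lost without barcodes carrying other-lineage markers (edgeR adjusted p = 0.0883), and that of Jak1 against CD8 T barcodes held in 6 of 12 alternative settings.

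Of 5 chemokine receptor genes tested against CD4 T barcodes 2 were higher, Ccr2 among them, and 0 lower, with a median log2 fold of −0.14. Against CD8 T barcodes 7 of 9 were higher, with a median of 1.43, and Cxcr6 and Cx3cr1 were lower. Itgae, a member of the Treg identity list, was among the genes with the largest folds in both comparisons. It encodes CD103, an integrin chain that binds E-cadherin, and stood at 66.5, 194 and 302 CPM in Tregs, at 13.4, 32.8 and 45.2 CPM in CD4 T and at 2.39, 4.15 and 6.76 CPM in CD8 T barcodes. The folds were 2.46 ± 0.29 and 4.97 ± 0.22. Ccr2, the receptor for the monocyte chemoattractant CCL2, stood at 113, 172 and 280 CPM in Tregs, at 13.0, 46.0 and 85.3 CPM in CD4 T and at 9.57, 16.8 and 29.8 CPM in CD8 T barcodes. Neither population overlapped the Tregs. The folds were 1.94 ± 0.25 and 3.07 ± 0.18. Further large rises against CD4 T barcodes were in Sh3rf1, which encodes a scaffold of JNK signalling (2.19 ± 0.30), the GTPase genes Gimap7 (2.14 ± 0.23) and Gbp3 (1.95 ± 0.25), Bmyc (2.13 ± 0.35) and Cd80 (1.94 ± 0.34), the gene of a ligand of CTLA-4 and CD28. Sh3rf1 was also higher than in CD8 T barcodes (4.35 ± 0.17), as were Izumo1r, which encodes folate receptor 4 (5.14 ± 0.19), Zdhhc23 (4.48 ± 0.27) and the transcription factor gene Tox (3.16 ± 0.35).

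Some genes of resting T cells and most of a list of receptor-induced and immediate early genes were lower in Tregs than in CD4 T barcodes. Of 10 genes of resting or recirculating T cells, 4 were lower than in CD4 T barcodes (Tcf7, Klf2, Bach2 and Bcl2), with a median fold of −0.73. Tcf7 encodes TCF-1, a factor of naive and memory T cells. It stood at 2.64, 8.03 and 21.2 CPM in Tregs and at 27.3, 50.1 and 153 CPM in CD4 T barcodes, without overlap (−3.35 ± 0.41, edgeR adjusted p = 0.000125). It was also lower than in CD8 T barcodes (−1.48 ± 0.36). Bcl2, an inhibitor of apoptosis, was lower in both comparisons (log2 folds −2.53 ± 0.25 and −2.32 ± 0.19). Of these 10 genes 6 were higher than in CD8 T barcodes and 2 were lower, with a median of 1.22. Among the genes induced by the T cell receptor or as immediate early genes, 7 of 12 were lower than in CD4 T barcodes and 0 higher, with a median of −0.81. They were Egr1, Fos, Fosb, Jun, Cd69, Dusp2 and Ier2. The call of Cd69 held in 6 of 12 alternative settings and was lost with DESeq2, within 3000 to 15000 UMIs and without any of 4 single libraries, at an adjusted p of up to 0.177, while the other 6 held in all 12. Egr1 stood at 33.0, 53.2 and 167 CPM in Tregs and at 71.4, 154 and 316 CPM in CD4 T barcodes. The ranges overlapped, but each of the 6 libraries had the lower value in Tregs (−1.41 ± 0.21, edgeR adjusted p = 0.00023). Against CD8 T barcodes 3 of 13 genes of this list were higher (Nr4a1, Nr4a3 and Junb) and 5 lower, with a median of −0.36. The list is not particular to T cells. Thinned to 2000 UMIs, it averaged 6.62 UMIs in Tregs, 8.19 in CD4 T, 5.21 in CD8 T, 7.21 in macrophage-gate and 10.1 in tumour-gate barcodes.

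Of 5 tested helper T cell genes, Il13, Tnf and Bcl6 were lower in Tregs than in CD4 T barcodes and 0 were higher. Il13, a type 2 cytokine gene, was at 0 in 5 Treg sums and at 6.82 CPM in shNC library 3, against 24.3, 77.7 and 689 CPM as the lowest, median and highest value in CD4 T barcodes. The Treg signal was 4 UMIs in 1 barcode, and 89.5% of the 564 UMIs in CD4 T barcodes were in 5 of 266 barcodes (edgeR adjusted p = 1.29e-09). Tnfsf8, which encodes the CD30 ligand, stood at 0.0, 5.95 and 22.6 CPM in Tregs and at 114, 280 and 622 CPM in CD4 T barcodes, without overlap (−5.20 ± 0.59, edgeR adjusted p = 0.00263). Tnfsf11, which encodes RANK ligand, was lower (log2 fold −3.47 ± 0.29), as was Tbc1d4, a regulator of glucose transporter traffic (−3.58 ± 0.34). Lgals7, Ntrk3 and St6gal1 had log2 folds of −4.10 ± 0.48, −3.36 ± 0.69 and −3.08 ± 0.25, all lower in Tregs. The call of Ntrk3 was lost without shNC library 2 or shPgk1 library 2, at an adjusted p of up to 0.0726. Tnf and Bcl6, the follicular helper factor gene, were lower too (−1.11 ± 0.25 and −1.01 ± 0.30). Gata3, the type 2 helper factor, stood at 125, 181 and 285 CPM in Tregs and 172, 214 and 280 CPM in CD4 T barcodes, an overlap (edgeR adjusted p = 0.201). It was higher than in CD8 T barcodes (2.19 ± 0.14). The calls of Bcl6, Klf2, Socs2, Tnf and Traf1 against CD4 T barcodes held in 6, 7, 8, 9 and 5 of 12 alternative settings, with adjusted p of up to 0.224, 0.131, 0.0862, 0.104 and 0.207 in the others, which included leaving out single libraries.

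The largest falls against CD8 T barcodes, among genes with at least 50 CPM there, were in Ccl1 (−8.48 ± 0.37), the granzyme genes Gzmf (−6.91 ± 0.31), Gzmg (−6.01 ± 0.61) and Gzmd (−5.84 ± 0.44), the NK receptor genes Klra5 (−6.14 ± 0.40) and Klrc1 (−5.98 ± 0.44), Nrgn (−6.10 ± 0.29) and Xcl1 (−5.75 ± 0.39), a dendritic cell attractant. Macrophage markers had a median log2 fold of −0.996 against CD4 T barcodes, with 0 of 6 passing the test, and their part in the falls was not tested.

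Some cell cycle genes were higher in Tregs than in CD4 T barcodes and many were lower than in CD8 T barcodes. Of 12 genes of the G1/S list, Mcm3, Mcm6, Mcm7 and Rrm1 were higher than in CD4 T barcodes and 0 lower, with a median of 0.82, and of 6 G2/M genes Top2a and Ube2c were higher and 0 lower. In the CD8 T comparison 9 of 18 G1/S and 9 of 18 G2/M genes were lower and 0 higher, with medians of −0.41 and −0.81. The CD4 T calls of Rrm1, Mcm3, Ube2c and Mcm7 held in 4, 5, 5 and 6 of 11 alternative settings, with adjusted p of up to 0.154, 0.189, 0.194 and 0.129, and that of Top2a in 5 of 12. All 5 were lost with DESeq2, without barcodes carrying other-lineage markers and without any of several single libraries, shPgk1 library 1 among them. The call of Mcm6 held in 11 of 12. Against CD8 T barcodes the call of Top2a held in 8 of 12 settings. The CD8 T barcodes were the deeper ones. Within 3000 to 15000 UMIs in both populations Top2a had a fold of −0.11 against CD4 T barcodes. With each barcode thinned to 2000 UMIs, 14.0% of Tregs had at least 2 G2/M UMIs, against 10.6% of CD4 T, 27.6% of CD8 T and 7.75% of macrophage-gate barcodes. Within Tregs the share was 5.45, 0.0 and 19.3% in shPgk1 libraries 1 to 3 and 17.2, 16.5 and 15.2% in shNC libraries 1 to 3. shPgk1 library 3 was the highest of the 6 and library 2, with 28 members, the lowest. Glycolysis genes passed the edgeR test against CD4 T barcodes in 0 of 16 cases, with 2 at an unadjusted p below 0.05, while 9 of 17 were lower and 1, the lactate transporter gene Slc16a3, was higher than in CD8 T barcodes (median −0.35). Of the interferon-stimulated genes, Ifi27l2a and Ly6a were higher than in CD4 T barcodes and 0 of 14 tested were lower (median 0.07), and 5 of 16 were higher and 0 lower against CD8 T barcodes (median 0.27). The call of Ifi27l2a against CD4 T barcodes held in 9 of 12 alternative settings, with an adjusted p of up to 0.0769 without shNC library 1, shPgk1 library 3 or barcodes carrying other-lineage markers.

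Detection at 1 fixed depth gave the share of members that carried each gene. At 2000 UMIs a UMI of Ikzf2 was found in 81.3% of 364 Tregs, 20.9% of CD4 T and 24.8% of CD8 T barcodes, against 1.7% of macrophage-gate barcodes. Ctla4 was found in 72.8, 33.5, 24.3 and 4.35% of the same populations. Klrg1 was found in 25.5, 3.94, 2.03 and 0.25%, and Itgb8 in 20.1, 1.97, 0.0884 and 0.05%. Il10 was found in 9.07, 4.72, 3.89 and 10.1%, and in 2.55% of tumour-gate barcodes. Macrophages can make Il10 themselves, and the part of free RNA in the Treg share was not tested. Unthinned, Ikzf2, Ctla4, Klrg1, Itgb8 and Il10 were found in 92.5, 93.8, 46.9, 34.6 and 23.9% of Tregs.

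**Figure D3:**
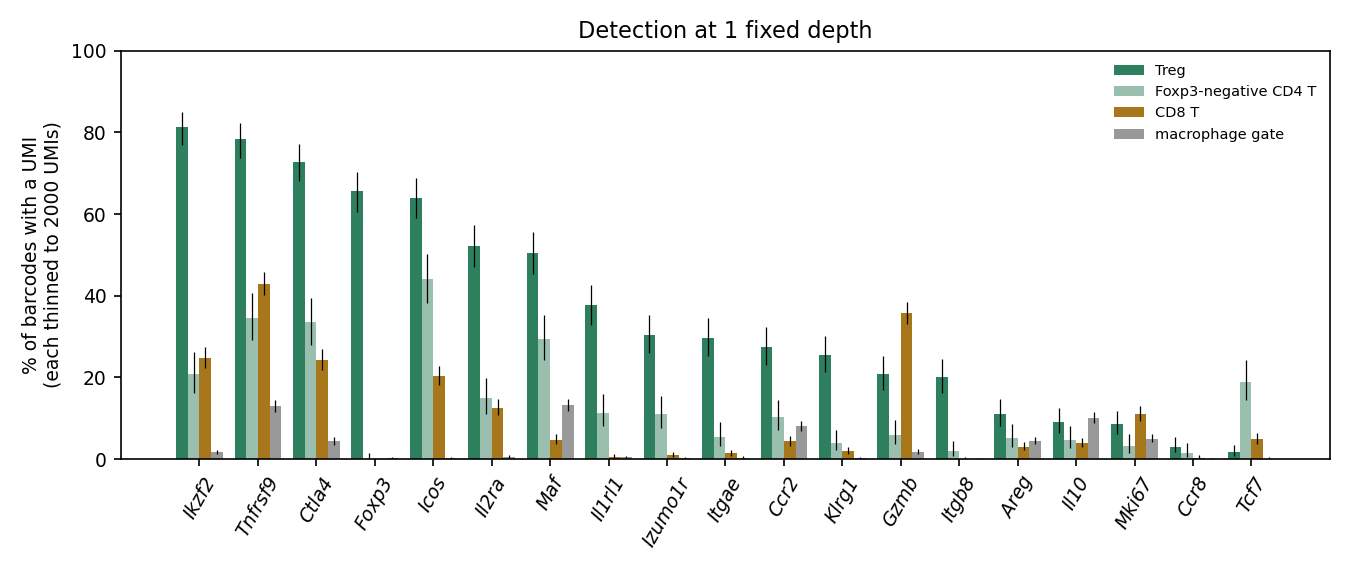
Percentage of barcodes with a UMI of each of 19 genes after thinning each barcode to 2000 UMIs, in Tregs, Foxp3-negative CD4 T, CD8 T and macrophage-gate barcodes; bars are shares over all libraries and whiskers 95% Wilson intervals (counting error only). Ikzf2 reaches 81.3% of Tregs and Itgb8 20.1%, while Il10 is at 9.07% in Tregs and 10.1% in macrophage-gate barcodes.

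Members differed among themselves. At the same fixed depth, the 233 members with an Icos UMI had a Ccr2 UMI in 37.3%, and those without Icos in 9.9%. Klrg1 was found in 37.2% of the 137 members with Il1rl1 and in 18.5% of the others. Ikzf2 was found in 91.2 and 75.3% of the same sets. Izumo1r did not follow Il1rl1, at 30.7% of members with it and 30.4% without it. These are shares over barcodes of the same 6 libraries and members carrying other-lineage RNA are among them, so they describe the barcodes and were not tested.

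The last comparison asked whether gene levels in Tregs differed between the groups. Of 6916 genes tested, 0 were higher in shPgk1 (0.0%) and 2, Ccl9 and Gm14015, were lower (0.0289%; edgeR quasi-likelihood test, adjusted p below 0.05), with 380 at an unadjusted p below 0.05. DESeq2 called 0 higher and 1 lower. The epithelial and mast cell markers differed between the same Treg sums without overlap, as given above, and fibroblast, neutrophil and macrophage markers each peaked in 1 library; their part in the group results was not tested. Marker genes of the label passed no test. Il2ra stood at 550, 788 and 642 CPM in shPgk1 libraries 1 to 3 and at 504, 631 and 432 CPM in shNC libraries 1 to 3 (0.24 ± 0.20, edgeR adjusted p = 0.925). Ikzf2 stood at 1391, 1767 and 1080 CPM and at 1426, 1267 and 549 CPM in the same order (0.31 ± 0.30, edgeR adjusted p = 0.933). Both groups overlapped for both genes. The submitters call the 3 libraries of a group biological replicates and name no separate animals or cultures, so the p-values measure the spread between these libraries.

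Ccl9, a chemokine gene of myeloid cells, stood at 3.58, 5.29 and 5.66 CPM in shPgk1 Treg sums 1 to 3 and at 73.8, 44.9 and 59.7 CPM in shNC sums 1 to 3. The groups did not overlap (−3.66 ± 0.44, edgeR adjusted p = 0.00241). The shPgk1 values rest on 7 UMIs and the shNC values on 147, of which 57 were in 1 barcode. Without shPgk1 library 1 the adjusted p was 0.0568, and without barcodes carrying other-lineage markers, or with 2 Foxp3 UMIs required, the gene was too low to be tested. In Foxp3-negative CD4 T barcodes Ccl9 stood at 7.19, 75.3 and 26.1 CPM in shPgk1 libraries 1 to 3 and at 29.2, 130 and 59.7 CPM in shNC libraries 1 to 3, and the groups overlapped. Ccl9 was also at 9.98 ± 1.85 CPM in shPgk1 and 51.1 ± 21.2 CPM in shNC CD8 T barcodes, at 130 ± 27.9 and 183 ± 21.4 CPM in macrophage-gate barcodes, and at 40.9 ± 4.05 and 88.0 ± 12.5 CPM over all kept barcodes (SD, n = 3 each). Macrophage markers in Treg sums had a median fold of −0.98 in shPgk1, and −0.08 without shNC library 3; their part in the Ccl9 difference was not tested. Gm14015, a predicted gene named after its values were seen, had 0 UMIs in shPgk1 Tregs and 69 in shNC Tregs, at least 13.9-fold lower against a floor of 3 counts over the group. In shPgk1 and shNC it stood at 0.107 ± 0.0929 and 27.2 ± 8.91 CPM over all kept barcodes, so the difference was present in the whole libraries. Its call was lost under DESeq2 (adjusted p = 0.0644) and without shNC library 1 (edgeR adjusted p = 0.391), shPgk1 library 1 (0.167) or shPgk1 library 3 (0.158).

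**Figure D4:**
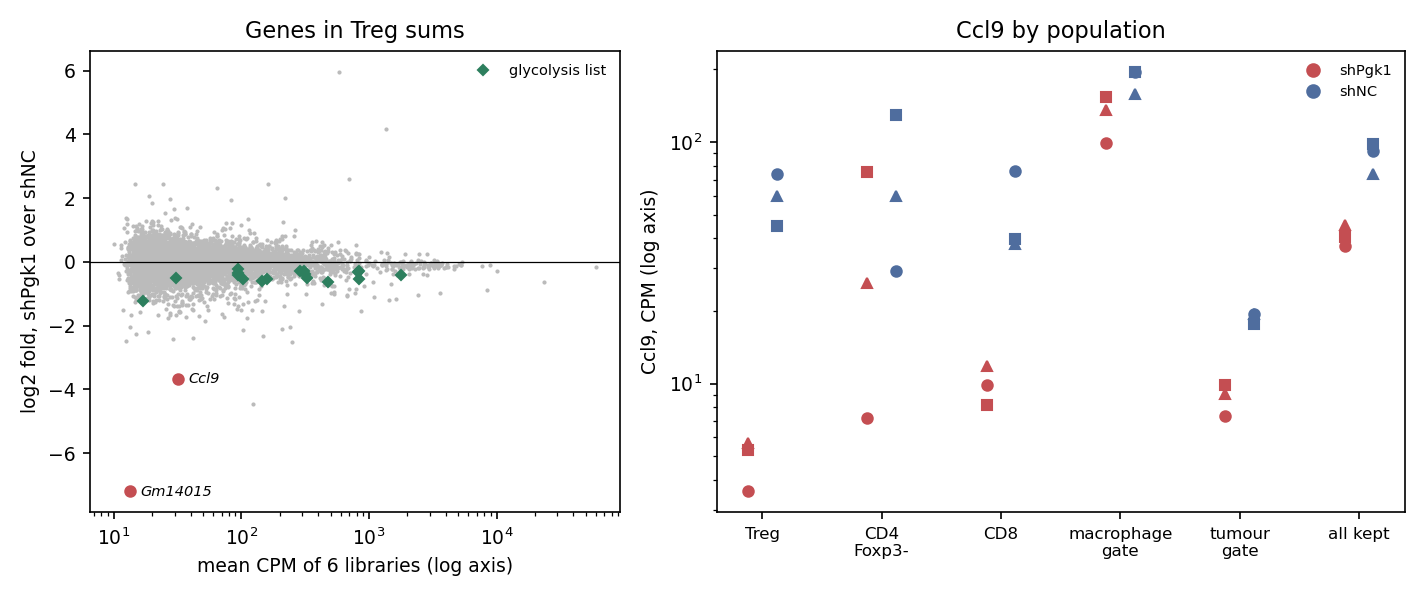
Left, log2 fold of shPgk1 over shNC against mean CPM (log axis) for each gene tested in Treg sums, with the 2 called genes in red and the 17 glycolysis genes in green; the plotted value of Gm14015, at 0 UMIs in shPgk1, is the fitted one and depends on the model. Right, Ccl9 in CPM (log axis) by population, with red shPgk1 left of blue shNC and circles, squares and triangles for libraries 1, 2 and 3; shPgk1 Treg sums lie at 3.58 to 5.66 CPM and shNC at 44.9 to 73.8 CPM.

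Other genes with the smallest p did not pass the test. Spata7 stood at 63.5 ± 36.5 CPM in shPgk1 and 177 ± 5.40 CPM in shNC (−1.50 ± 0.30), the monocyte marker Ly6c2 at 11.7 ± 8.36 and 46.3 ± 20.6 CPM (−2.41 ± 0.48) and Igkc, an immunoglobulin light chain gene, at 61.6 ± 2.27 and 145 ± 51.0 CPM (−1.31 ± 0.27), each at an edgeR adjusted p of 0.218. These 3 did not overlap between groups, nor did 794 of the 6916 genes tested (11.5%). Spata7 and Ly6c2 passed in 2 and Igkc in 3 of 13 alternative settings. Over all kept barcodes Spata7 stood at 244 ± 25.2 CPM in shPgk1 and 495 ± 106 CPM in shNC, Ly6c2 between 41.1 and 87.1 CPM in shPgk1 and between 75.0 and 196 CPM in shNC, and Igkc at 5.48 ± 6.15 and 19.4 ± 19.1 CPM in the same order. There the groups did not overlap for Spata7 and overlapped for Ly6c2 and Igkc. The chemokine gene Cxcl16 stood at 84.2 ± 15.5 and 183 ± 53.1 CPM in Treg sums (edgeR adjusted p = 0.365), and AY036118, a ribosomal-RNA-like transcript, had a fold of −0.64 ± 0.13 (edgeR adjusted p = 0.236). In Treg sums the groups did not overlap for Cxcl16 or AY036118 either. Hspa1a, the inducible HSP70 gene, stood at 77.0, 185 and 65.0 CPM in shPgk1 libraries 1 to 3 and at 72.8, 556 and 500 CPM in shNC libraries 1 to 3. shNC library 1 lay among the shPgk1 values (edgeR adjusted p = 0.917). Over all kept barcodes Cxcl16 stood at 273 ± 58.6 CPM in shPgk1 and 391 ± 42.1 CPM in shNC. AY036118 stood there at 19983 ± 2223 and 29655 ± 4130 CPM, and Hspa1a at 72.2 ± 35.2 and 282 ± 98.9 CPM, in the same order. For Cxcl16, AY036118 and Hspa1a the groups did not overlap over all kept barcodes.

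Pgk1 in Treg sums stood at 344, 148 and 337 CPM in shPgk1 libraries 1 to 3 and at 318, 401 and 428 CPM in shNC libraries 1 to 3. The groups overlapped, and library 2 of shPgk1, which held the fewest members, was the lowest (−0.52 ± 0.28, edgeR adjusted p = 0.917). The gene lies on chromosome X from 106187100 to 106203699 on the plus strand (GRCm38), and no source used here says how reads shared with its processed pseudogenes were assigned. All 17 tested glycolysis genes had folds below 0, with a median of −0.42 and a range from −1.22 to −0.22, beside a median of 0.01 over all 6916 genes, of which 3395 were below 0. None passed the edgeR test after adjustment, and 5 had an unadjusted p below 0.05. Of the 17 genes, 5 did not overlap between the groups (Aldoa, Gpi1, Slc16a1, Slc2a1 and Tpi1), beside 11.5% of all genes tested. Aldoa, for aldolase, averaged 710 ± 102 CPM in shPgk1 and 961 ± 176 CPM in shNC, and Tpi1, for triose phosphate isomerase, 388 ± 75.4 and 562 ± 127 CPM (edgeR adjusted p = 0.89 and 0.883). The list's median stayed between −0.56 and −0.33 over 13 alternative settings, and was −0.33 without shNC library 3 and −0.36 without barcodes carrying other-lineage markers. Their common sign was not tested. Interferon-stimulated genes had a median of −0.26 with 0 of 14 passing, the Treg identity genes 0.08 with 0 of 14, and the genes of activated tumour Tregs 0.17 with 0 of 17.

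The difference between the group effect in Tregs and that in Foxp3-negative CD4 T barcodes was tested as an interaction. It passed for 0 of 6758 genes by edgeR (0.0%), with 247 at an unadjusted p below 0.05, and for 0 by DESeq2. The 17 glycolysis genes had a median interaction of −0.20 with 16 below 0, beside −0.01 over all genes, and 0.00 with 8 below 0 once barcodes with other-lineage markers were left out of both populations. Other lists lay further from 0. The median was 0.42 for Treg identity genes (11 of 14 above 0) and 0.51 for genes of activated tumour Tregs (12 of 17 above 0). For macrophage or monocyte markers it was −1.46 (6 of 7 below 0). Without barcodes carrying other-lineage markers these 3 medians were 0.49, 0.47 and 0.01. The common sign within a list was not tested. Pgk1 in CD4 T barcodes stood at 335 ± 92.5 CPM in shPgk1 and 309 ± 70.1 CPM in shNC.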

How the data were processed

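The authors deposited raw UMI counts per gene and barcode, 1 matrix per library. The submitters' processing notes list PISA 0.12, Seurat 4 and a human genome build, although gene names are those of mouse; no source used here gives the mouse build or the aligner. Members and gene lists were chosen with earlier results of these data known. No doublet caller was run; barcodes with other-lineage markers were left out as an alternative. Counts were summed per library and population and tested with edgeR 4.0.16 in R 4.3.3 (robust quasi-likelihood, TMM, filterByExpr, Benjamini-Hochberg, threshold 0.05), with DESeq2 1.42.0 as an alternative. The edgeR gene tests were also run on simulated data. Pgk1 was always named. For the groups, called genes with at least 20 CPM and no overlap were named, and, as fewer than 6 passed, the 6 with the smallest p. For populations, the 12 largest rises and 8 largest falls with at least 50 CPM and 1 direction in 6 libraries were named, and list members could be. Levels are CPM of the sums, and Wilson intervals at 95% and floors of 3 counts cover counting error only. Library pairs differed beyond sampling noise (chi-square per degree of freedom from 24.3 to 278). Replicate numbers did not pair libraries: correlations of deviations were −0.04, 0.02 and 0.10. Columns of other samples numbered 0. Some list members are not reported here. Python 3.11.15 was used for gates and shares.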

Additional observations from a re-analysis of the deposited data

How the results depend on the processing

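In Tregs, the count of genes higher and lower in shPgk1, 0 and 2, was 22 and 69 with no filter on low counts, 0 and 1 with DESeq2, and 0 and 5 without barcodes carrying other-lineage markers. The 5 were Gm14015, Igkc, Col1a1, S100a8 and S100a9. Of these, Col1a1, S100a8 and S100a9 are markers by which the barcodes were left out, so their levels were limited by that choice. Leaving out 1 library gave 0 higher in each case and between 1 and 19 lower, the top without shNC library 2. Those 19 included Ccl9 and Gm14015 and the myeloid genes Cd14, Ctss, Ly6c2, Ly6i, Mmp12 and Tlr2. The Treg sum of shNC library 3, which stayed in, had the highest macrophage marker level (7493 CPM), and its part in these calls was not tested. Against CD4 T barcodes, the 193 higher and 271 lower genes were 125 and 172 with DESeq2. The counts were 271 higher and 419 lower with 2 Foxp3 UMIs required, and 288 and 406 with no filter on low counts. Leaving out 1 library gave between 121 and 199 higher and between 152 and 258 lower; the lowest counts were without shNC library 1, at 121 and 169, and without shPgk1 library 1, at 129 and 152. Against CD8 T barcodes, 900 and 850 remained among fewer genes when both populations were held to 3000 to 15000 UMIs, where the log2 fold of Nlrc5 turned to −0.034; that of Top2a against CD4 T barcodes turned to −0.11. DESeq2 placed the median of all genes at −0.19 against CD4 T and at 0.26 against CD8 T barcodes. The interaction count of 0 was 22 with no filter, and between 0 and 8 without 1 library, the top without shNC library 1, 1 without shPgk1 library 2 and 2 without shPgk1 library 3. Leaving out 1 library moved the difference in Treg share of CD3 barcodes between −5.88 and 0.46 points. The cause of these changes was not tested. With the replicate number as a block, 0 genes were higher and 3 lower in shPgk1 (Ccl6, Ccl9 and Saa3), and Gm14015 had an adjusted p of 0.0858; numbers are shared labels only. The Treg sum of shPgk1 library 2, from 28 barcodes, held 189024 UMIs, so 1 UMI is 5.29 CPM there; without that library 0 genes were higher and 2 lower.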

Other observations

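An immunoglobulin light chain gene was among the largest rises of Tregs over both other T populations, while the summed B cell markers reached at most 10.6 CPM in Treg sums. Igkc, on chromosome 6 from 70726435 to 70726966 on the plus strand (GRCm38), stood at 59.1, 76.1 and 189 CPM as the lowest, median and highest Treg library. It stood at 0.0, 5.28 and 15.9 CPM in Foxp3-negative CD4 T and at 2.12, 5.04 and 9.83 CPM in CD8 T barcodes. The ranges did not overlap, with log2 folds of 3.89 ± 0.35 (edgeR adjusted p = 1.36e-06) and 4.09 ± 0.27 (edgeR adjusted p = 2.86e-08) that stayed past the threshold in all 11 and 12 alternatives in which the gene was tested. The B cell genes Cd79a and Jchain averaged 0.236 CPM each in Treg sums, and macrophage-gate barcodes had Igkc at 1.16 ± 1.09 CPM in shPgk1 and 4.77 ± 4.38 CPM in shNC. Over all kept barcodes it stood at 5.48 ± 6.15 CPM in shPgk1 and 19.4 ± 19.1 CPM in shNC, where the groups overlapped. The UMIs were spread over 79 of 373 Tregs, with at most 26 in 1 barcode and 23.8% in the top 5. The share of Tregs with an Igkc UMI was 9.93% of 141 in shPgk1 and 28.0% of 232 in shNC; it was 1.87 and 5.66% of CD4 T barcodes and 2.49 and 8.12% of CD8 T barcodes in the same groups. In shPgk1, 68.5% of the 89 Treg UMIs were in 5 barcodes.

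The heavy chain gene Ighm was higher in Tregs as well, at 39.2, 76.6 and 102 CPM against 4.79, 16.8 and 45.2 CPM in CD4 T and 4.81, 8.72 and 12.5 CPM in CD8 T barcodes (log2 folds 1.67 ± 0.31 and 2.81 ± 0.17, edgeR adjusted p = 0.00237 and 4.49e-11), with a UMI in 139 of 373 Tregs. It stood at 78.2 ± 7.96 CPM in shPgk1 and 71.3 ± 31.5 CPM in shNC Tregs (edgeR adjusted p = 0.998). Macrophage-gate barcodes had Ighm at 19.6 ± 3.49 CPM in shPgk1 and 14.5 ± 4.18 CPM in shNC. The source of these transcripts was not tested.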
